A study of Mus musculus with 288 samples.

Results

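The comparison is between macrophages that had been given dCA and macrophages that had been given DMSO, the solvent control, before stimuli that are known to induce interferon. Its members are the wells titled dCA1 and DMSO for the stimuli that the labels name LPS, MDP_LPS, Poly(I:C) and SeV, at 8 times each. These are 64 of the 288 wells of the series, 32 with dCA and 32 with DMSO. All wells held bone marrow-derived macrophages (BMDM) of C57BL/6 mice, given an age of 12 weeks in the labels and grown from bone marrow for 7 days with M-CSF, the growth factor of the macrophage lineage. The cells had dCA at 100 nM for 24 h, or DMSO, before the stimulus, and no other allele or agent is named. The 24 h is listed for dCA, and no duration is listed for DMSO. dCA is listed as an inhibitor of CDK8. The wells were collected at 15, 30, 45, 60, 90, 120, 150 and 180 min. These are the times of the sample labels, while the series text speaks of up to 4 h. Each stimulus and time had 1 well with dCA and 1 with DMSO. All dCA wells share 1 library index and all DMSO wells another, 1 plate each, so dCA and plate cannot be told apart. The labels name no separate cultures or animals, so p-values measure only the spread between wells, which may be technical. In wells of many cells, fewer cells that express a gene and less RNA per cell cannot be told apart.

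LPS is sensed by TLR4 and Poly(I:C), a synthetic double-stranded RNA, by TLR3. Both receptors use the adaptor TRIF, through which IRF3 is activated and interferon beta is made. Secreted interferon then activates a complex that includes IRF9, which binds the interferon-stimulated response element (ISRE) of antiviral genes. CDK8 and its cofactor cyclin C belong to the kinase module of Mediator, the complex that links transcription factors to RNA polymerase II.

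Genes were measured by 3' digital gene expression as counts of distinct molecular barcodes (UMI), from 50175 to 123855 per well. Levels below are CPM, UMI per 1000000 UMI of the well after TMM scaling. The ribosomal transcript Rn45s took 49.6% ± 5.77 (SD, n = 32) of UMI with DMSO and 46.7% ± 7.61 (SD, n = 32) with dCA. Its share was lower with dCA at 20 of 32 stimulus and time conditions, and the UMI total was lower with dCA at 21 of 32. Of 13 macrophage markers in the table none was at 0 in all wells, and their summed level had a median of 5753 CPM with DMSO and 5738 CPM with dCA. The defining markers of other lineages were mostly absent: 5 of 7 B cell, 8 of 10 T and NK cell, 6 of 9 dendritic cell and 5 of 6 mast cell and basophil markers had no UMI in any of the 64 wells. Other lists had more markers present, with 4 of 9 neutrophil, 4 of 8 fibroblast and stromal, 3 of 6 endothelial and 2 of 11 osteoclast markers at 0. The DMSO well of Poly(I:C) at 30 min stood apart with 123855 UMI, beside 66476 to 91050 in the other DMSO wells of that stimulus, and 399 genes in place of 433 were called without its pair. The summed osteoclast markers ranged from 12.7 to 222 CPM with DMSO and from 43.7 to 363 CPM with dCA.

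The name given to the stimuli was first checked in the DMSO wells, with those of 60 to 180 min set against the unstimulated wells (NoStim) of the same times. Over the mean of the 4 stimuli, both label markers were called, which here means a Benjamini-Hochberg adjusted p under 0.05 in edgeR's quasi-likelihood test. Cxcl10, a chemokine induced by interferon, rose by 1.26 ± 0.25 (log2 ± SE, adjusted p = 0.0013), and Ifit2, an antiviral protein that binds RNA, rose by 1.42 ± 0.36 (adjusted p = 0.0238). The stimuli were unequal. LPS had 80 genes called (1.41% of 5671 tested), MDP_LPS 91 (1.6%), Poly(I:C) 40 (0.705%) and SeV 3 (0.0529%), which were Ifit1, Rsad2 and Ccl4. With SeV, Cxcl10 was 0.51 ± 0.31 and Ifit2 0.96 ± 0.43 above NoStim, with adjusted p of 0.836 and 0.708. In those wells the label rests on Ifit1 and Rsad2, interferon-induced genes that were 3.87 ± 0.55 and 3.11 ± 0.44 above NoStim on the log2 scale, and not on its own markers.

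With dCA, Cxcl10, Ifit2 and a part of the other interferon genes were lower than with DMSO over the 4 stimuli combined. Of 139 genes in 8 interferon lists 115 could be tested, and 29 fell and 2 rose, beside 4.17% of all 5782 tested genes that fell and 3.32% that rose. The median change of the 115 genes was -0.38 on the log2 scale and 99 of them were below 0, while the median over all tested genes was -0.07. In all, 433 genes were called (7.49%), 192 higher and 241 lower with dCA. The split depended on the scaling, since TMM factors taken from the summed libraries gave 235 higher and 159 lower, and DESeq2 gave 163 higher and 288 lower. Among the interferon genes the count of 29 became 19 without MDP_LPS, 15 without Poly(I:C), 17 in the wells of 60 min and later, 18 with TMM of summed libraries, 16 with the wells of a stimulus summed and 13 when stimulus and time were not used as blocks. It was 21 with the Rn45s share of each well as a covariate.

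**Figure D1:**
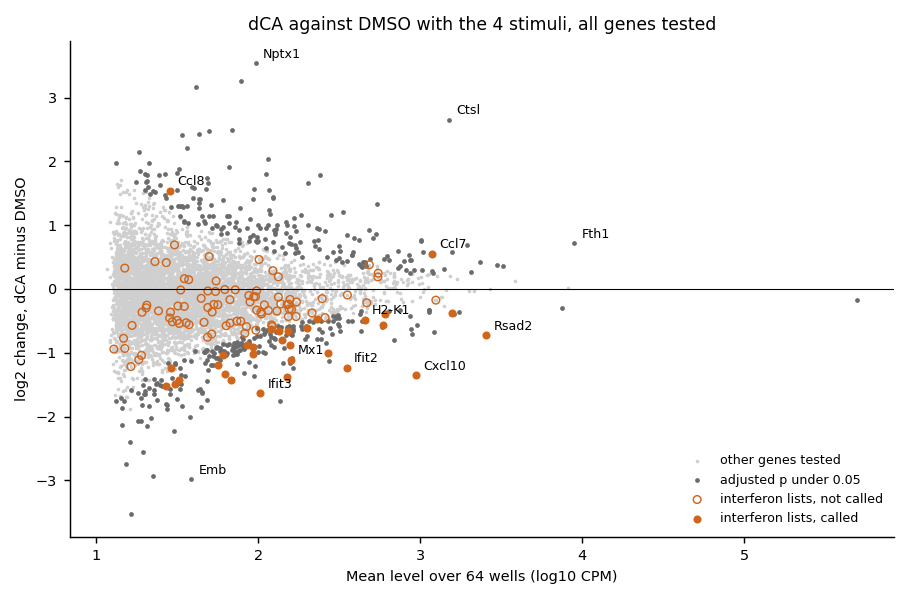
Each point is 1 of the 5782 tested genes, by its mean level over 64 wells (log10 CPM) and its log2 change with dCA. Filled orange points are the interferon genes called, 29 below 0 and 2 (Ccl7 and Ccl8) above, open orange points are interferon genes not called, and dark grey points are other called genes.

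Cxcl10 had the smallest adjusted p of the interferon genes. Its level ran from 77.9 over a median of 839 to 3198 CPM in the DMSO wells, and from 0 over 392 to 2243 CPM in the dCA wells. The ranges overlap, and the gene climbed with time in both. Within conditions the dCA well was the lower at 30 of 32, the exceptions being LPS and MDP_LPS at 30 min. The change was -1.35 ± 0.12 (log2 ± SE, adjusted p = 1.86e-16). Ifit2 ran from 0 over 297 to 1443 CPM with DMSO and from 0 over 140 to 818 CPM with dCA. The dCA well was lower at 25 of 32 conditions, and the change was -1.24 ± 0.18 (adjusted p = 2.47e-07). Both genes stayed called in all 18 alternative analyses.

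Examples from the time courses follow, each from single wells, and they do not show a time at which the pretreatments part. With LPS at 90 min, Cxcl10 stood at 2744 CPM with DMSO and 497 CPM with dCA, and at 180 min at 3198 and 1685 CPM. With Poly(I:C) at 150 min, Ifit2 stood at 1020 CPM with DMSO and 36.9 CPM with dCA. At 180 min it was 1443 and 423 CPM, the dCA well again being the lower. With SeV at 180 min, Ifit2 was 1308 CPM with DMSO and 334 CPM with dCA, but at 60 min the order was the other way, 46.7 and 320 CPM.

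**Figure D2:**
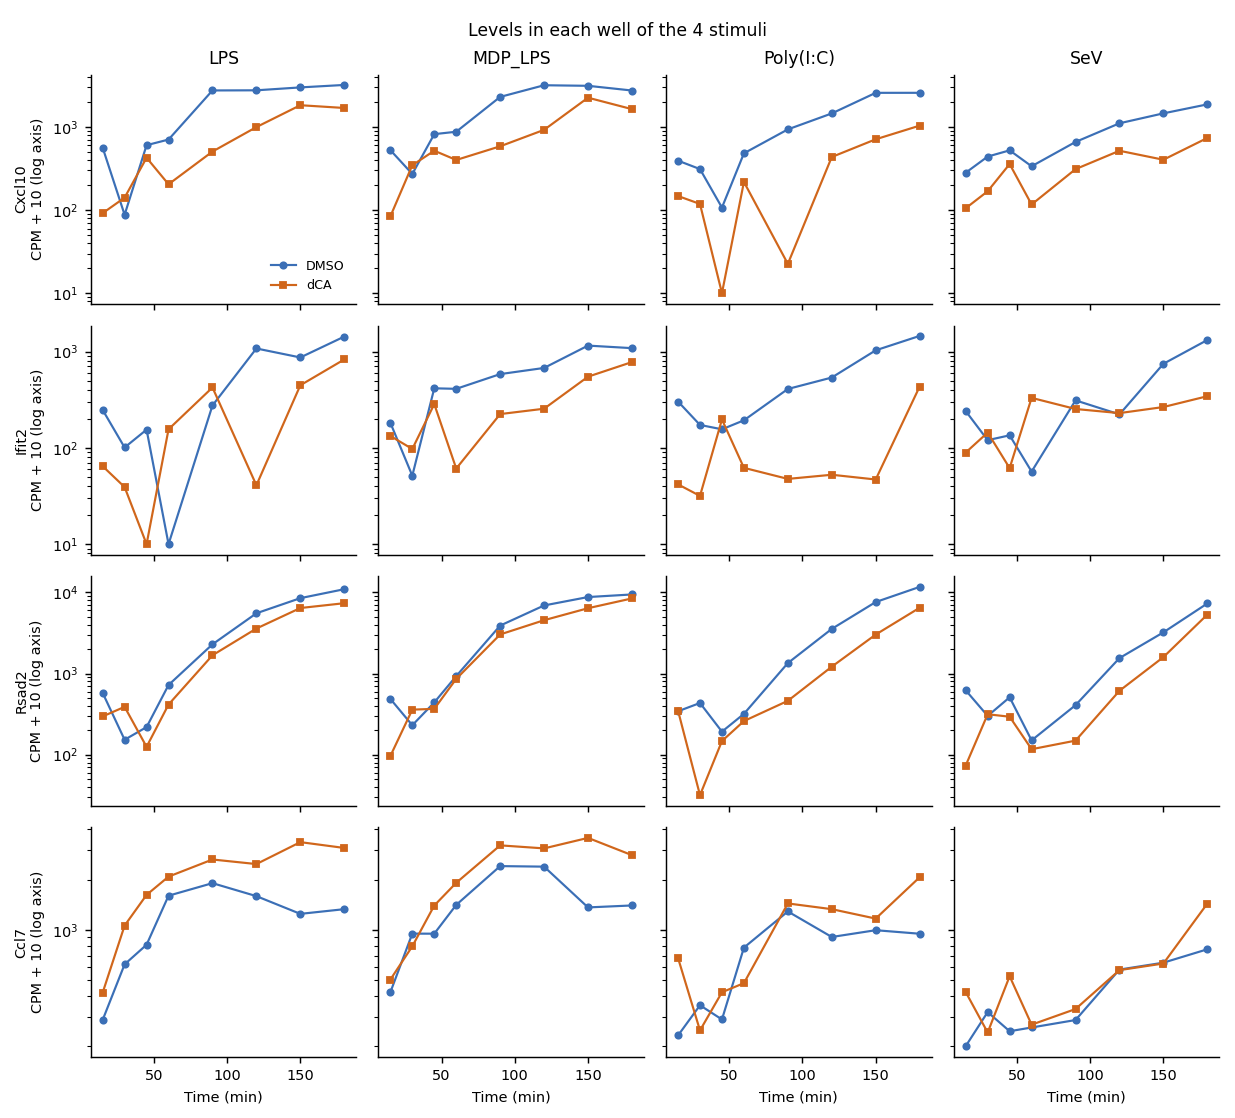
CPM + 10 on a log axis against time (min) in each well, for Cxcl10, Ifit2, Rsad2 and Ccl7 (panels down) and the 4 stimuli (panels across), DMSO in blue circles and dCA in orange squares, 1 well per point. The dCA points of Cxcl10 lie under the DMSO points at 30 of 32 conditions and those of Ccl7 above them at 26 of 32.

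The promoters of the genes that lead this pattern are shown so that genes which fell can be set beside Ccl8, which rose. Each is a RefSeq window of 300 bases of GRCm38.p6, from 250 before to 50 after an annotated start, read on the gene's strand. Of 32 named interferon genes 25 had a window, and Ccl7, which also rose, was among those without one. Capitals mark 2 motifs searched on both strands, an ISRE-like motif (GAAANNGAAA, or TTTCNNTTTC) and a kB-like motif (GGGANNTTCC, or GGAANNTCCC); no matches overlapped in the windows shown. Ifit2 has 2 annotated starts, at chr19:34550444-34550743 and chr19:34550838-34551137, plus strand. Cxcl10 is at chr5:92348840-92349139, minus strand, Rsad2 at chr12:26456403-26456702, minus strand, Ifit3 at chr19:34583279-34583578, plus strand, and Ccl8 at chr11:82114935-82115234, plus strand.
Ifit2 start 1: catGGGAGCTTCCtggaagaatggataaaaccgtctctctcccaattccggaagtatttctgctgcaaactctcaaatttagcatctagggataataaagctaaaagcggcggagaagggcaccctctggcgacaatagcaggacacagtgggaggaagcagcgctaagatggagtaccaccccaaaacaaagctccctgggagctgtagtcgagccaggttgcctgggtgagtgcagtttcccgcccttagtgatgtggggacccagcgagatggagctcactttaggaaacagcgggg
Ifit2 start 2: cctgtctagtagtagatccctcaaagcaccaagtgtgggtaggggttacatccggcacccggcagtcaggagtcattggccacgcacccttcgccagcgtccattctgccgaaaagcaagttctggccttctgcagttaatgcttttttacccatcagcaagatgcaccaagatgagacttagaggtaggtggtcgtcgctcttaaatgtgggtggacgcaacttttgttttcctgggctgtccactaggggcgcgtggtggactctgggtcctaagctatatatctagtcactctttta
Cxcl10: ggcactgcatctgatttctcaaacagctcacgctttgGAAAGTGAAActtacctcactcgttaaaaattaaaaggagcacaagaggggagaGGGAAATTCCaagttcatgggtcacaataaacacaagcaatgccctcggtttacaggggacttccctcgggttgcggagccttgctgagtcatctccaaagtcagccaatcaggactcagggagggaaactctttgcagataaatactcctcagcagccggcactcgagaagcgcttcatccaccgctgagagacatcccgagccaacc
Rsad2: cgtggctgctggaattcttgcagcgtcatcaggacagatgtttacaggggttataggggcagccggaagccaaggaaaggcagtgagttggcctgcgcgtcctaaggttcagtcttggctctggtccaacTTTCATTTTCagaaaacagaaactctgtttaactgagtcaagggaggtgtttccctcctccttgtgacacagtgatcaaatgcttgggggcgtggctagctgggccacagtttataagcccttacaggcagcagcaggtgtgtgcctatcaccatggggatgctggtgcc
Ifit3: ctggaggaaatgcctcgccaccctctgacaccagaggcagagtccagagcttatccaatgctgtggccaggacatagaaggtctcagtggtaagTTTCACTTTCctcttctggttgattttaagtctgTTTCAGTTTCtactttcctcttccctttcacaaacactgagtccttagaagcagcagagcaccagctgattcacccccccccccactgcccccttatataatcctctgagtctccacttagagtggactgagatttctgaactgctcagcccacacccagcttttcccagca
Ccl8: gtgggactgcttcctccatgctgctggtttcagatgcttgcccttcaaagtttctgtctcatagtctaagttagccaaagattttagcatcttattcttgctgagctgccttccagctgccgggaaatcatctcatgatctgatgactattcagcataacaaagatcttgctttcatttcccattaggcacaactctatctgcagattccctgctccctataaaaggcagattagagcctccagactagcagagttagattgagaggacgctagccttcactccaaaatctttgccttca

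Cxcl10 held an ISRE-like match beginning 213 bases before the start and a kB-like match 159 bases before it. Rsad2 held 1 ISRE-like match, 120 bases before the start, and Ifit3 held 2, at 156 and 122 bases. The first Ifit2 window held only a kB-like match, 247 bases before the start, and the second window and the Ccl8 window held neither. The 2 windows of Irf1, a gene that was not called, also held neither motif and are not printed. The ISRE-like letters occur in 3.44% of all 32851 promoter windows and in a window of 4.57% of the 4380 tested genes that have one, 11.2% of the 179 called lower, 5.33% of the 150 called higher and 40.5% of the 84 tested interferon genes. Among those 84 genes they occurred in 8 of 21 that fell with dCA (38.1%) and in 26 of 63 that did not (41.3%). A match describes these letters only.

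Among the IFIT and other antiviral effectors, 38 of 42 genes were tested, 10 fell and none rose, with a median change of -0.41. Over all tested genes 4.17% fell and 3.32% rose, with a median of -0.07. Ifit3, a partner of other IFIT proteins, ran from 0 over 80.2 to 772 CPM with DMSO and from 0 over 26.6 to 252 CPM with dCA. It was lower with dCA at 27 of 32 conditions, including all 8 with LPS, and changed by -1.63 ± 0.26 (adjusted p = 7.13e-07). Rsad2 encodes viperin, an enzyme that makes a chain-terminating nucleotide, and ran from 140 over 817 to 11696 CPM with DMSO and from 21.7 over 428 to 8432 CPM with dCA. The gene was lower at 28 of 32 conditions, 7 of 8 with each stimulus, and fell by 0.72 ± 0.10 (adjusted p = 4.09e-08). Mx1 was lower at 28 of 32 conditions and fell by 1.11 ± 0.21 (adjusted p = 5.21e-05). The other genes called were Cmpk2, a mitochondrial nucleotide kinase next to Rsad2 in the genome, at -1.01, Oasl1, a relative of the oligoadenylate synthetases, at -0.87, Samhd1, a dNTP hydrolase, at -0.80, Daxx at -0.66, Isg15, a ubiquitin-like modifier, at -0.65 and Ifit1, which binds foreign RNA ends, at -0.57. Isg15 lost the call in 11 alternatives. Rsad2, Mx1 and Oasl1 lost it in 1, with no blocks for stimulus and time, and Ifit1 with no blocks and without Poly(I:C).

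The interferon-linked chemokines split. Of 9 listed genes, all tested, 5 fell and 2 rose, beside 4.17% and 3.32% of all tested genes. Cxcl9 and Cxcl11, which share the receptor CXCR3 with Cxcl10, were detected in few molecules, 113 and 40 UMI in all for Cxcl9 with DMSO and dCA. They changed by -1.42 ± 0.43 (adjusted p = 0.0227) and -1.49 ± 0.44 (adjusted p = 0.0205). Cxcl9 was lower with dCA at 16 and higher at 4 of 32 conditions, the rest being equal, and it lost the call in 8 alternatives. Ccl12, a monocyte attractant, fell by 1.37 ± 0.22 (adjusted p = 1.14e-06), from a median of 122 CPM with DMSO to 51.4 CPM with dCA. Ccl4, a chemokine for monocytes and T cells, fell by 0.38 ± 0.09 (adjusted p = 0.00349). It was not called without Poly(I:C), in the wells of 60 min and later, with TMM of summed libraries or with no blocks.

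Ccl7 and Ccl8, both ligands of monocyte chemokine receptors, went the opposite way. Ccl7 ran from 190 over 849 to 2401 CPM with DMSO and from 232 over 1238 to 3551 CPM with dCA. The dCA well was higher at 26 of 32 conditions, all 8 with LPS and 7 of 8 with MDP_LPS, and the change was 0.55 ± 0.09 (adjusted p = 5.14e-06), which was not called with no blocks. Ccl8 rose by 1.54 ± 0.45 (adjusted p = 0.0194) on 32 UMI with DMSO and 110 with dCA, and lost the call in 5 of the 16 alternatives that tested it. Ccl5, a chemokine for T cells, was not called at -0.09 ± 0.16 (adjusted p = 0.824), with medians of 53.2 CPM with DMSO and 57.6 CPM with dCA.

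The interferon-induced GTPases attack the membranes around intracellular microbes. Of 13 tested members 6 fell and none rose, beside 4.17% and 3.32% of all tested genes, with a median of -0.50. Those that fell were Gbp6 at -1.52, Gbp5 at -1.43, Tgtp1 at -1.19, Tgtp2 at -1.03, Iigp1 at -0.88 and Gvin1 at -0.47. Tgtp1 and Tgtp2 are near-identical copies whose counts may be split between them, so they are uncertain. Gbp5 had medians of 71.0 CPM with DMSO and 21.5 CPM with dCA, was lower at 22 conditions and higher at 5, and kept its call in the 17 alternatives that tested it. Gbp6 lost it in 7 and Tgtp1 in 2. Gbp2 was not called, at -0.50 ± 0.27 (adjusted p = 0.313).

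Of 10 tested genes that restrain the interferon signal, 4 fell and none rose, beside 4.17% and 3.32% of all tested genes. Usp18, which removes ISG15 from proteins and blocks the interferon receptor, was at -1.33 ± 0.31 (adjusted p = 0.00133). The phosphatase gene Ptpn6 was at -1.02 ± 0.25 (adjusted p = 0.00364) and Usp25 at -0.90 ± 0.26 (adjusted p = 0.0166). Tnfaip3, the NF-kB inhibitor A20, was at -0.61 ± 0.19 (adjusted p = 0.0236). Usp18 lost its call without MDP_LPS and with the Rn45s share as a covariate, and Ptpn6 with total read counts, without Poly(I:C) and in the wells of 60 min and later. Socs1, an inhibitor of JAK kinases, was at 0.33 ± 0.55 on 29 and 39 UMI and was not called. In antigen processing 14 of 15 genes were tested and 3 fell, beside the same 4.17%. These were the class I heavy chains H2-K1 (-0.48 ± 0.10, adjusted p = 6.50e-04) and H2-D1 (-0.39 ± 0.10, adjusted p = 0.00555) and the immunoproteasome subunit Psmb8 (-0.62 ± 0.21, adjusted p = 0.0472). H2-K1 ran from 222 over 512 to 975 CPM with DMSO and from 191 over 406 to 704 CPM with dCA. Both class I genes were lower with dCA at 27 of 32 conditions. Psmb8 lost its call in 11 alternatives and H2-D1 in 3.

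Upstream genes gave few calls, but the lists are short, and 4.17% of all tested genes fell. Most of their values lay below 0, with 5 of 7 interferon genes (median -0.36) and 13 of 14 sensors and adaptors (median -0.40). The calls therefore do not show that upstream genes were spared. None of the 7 tested interferon genes was called, and Ifnb1, the gene of interferon beta, had 42 UMI over all DMSO wells and 24 over all dCA wells (-0.77 ± 0.56, adjusted p = 0.495). Among 10 IRF and STAT genes none was called in edgeR with TMM factors, the median was -0.17 and 9 were below 0. Irf1 was at -0.56 ± 0.21 (adjusted p = 0.0892) and was called lower in 4 of 18 alternatives, among them DESeq2 (-0.77, adjusted p = 0.00535). Irf7 was at -0.35 ± 0.19 (adjusted p = 0.338), and Irf9 and Stat2 at -0.10 and -0.03. Of 14 sensors and adaptors only Zbp1, a sensor of Z-form nucleic acid, fell (-1.24 ± 0.39, adjusted p = 0.0338), and it lost the call in 9 alternatives. Ddx58, which encodes the RNA sensor RIG-I, was at -0.03 ± 0.25 (adjusted p = 0.975). The target itself was thinly read, since Cdk8 had 39 UMI with DMSO and 47 with dCA (0.29 ± 0.51, adjusted p = 0.833), and its paralog Cdk19 and the cyclin gene Ccnc, with 29 and 21 UMI and 21 and 14 UMI, did not reach the minimum mean of 1 UMI per well. RNA levels of the target do not show whether the kinase was inhibited.

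The 4 stimuli were then taken separately, with 8 pairs of wells each. LPS gave 35 called genes (0.605% of those tested), MDP_LPS 28 (0.484%), Poly(I:C) 60 (1.04%) and SeV 45 (0.778%). Among the interferon genes 7 fell with Poly(I:C) (0.467% of all tested genes fell), 3 with SeV (0.242%), 1 with MDP_LPS (0.208%) and 1 with LPS (0.0692%), and 1 rose with LPS (0.536%). The list medians were -0.54, -0.40, -0.33 and -0.30 in that order, beside medians of all tested genes of -0.11, -0.05, -0.06 and -0.03. Cxcl10 was called with every stimulus, at -1.28 ± 0.23 with LPS, -1.09 ± 0.21 with MDP_LPS, -1.83 ± 0.25 with Poly(I:C) and -1.30 ± 0.24 with SeV.

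Ifit2 was -2.36 ± 0.38 with Poly(I:C), where it was called, and -1.11 ± 0.36, -0.96 ± 0.32 and -0.71 ± 0.35 with LPS, MDP_LPS and SeV, where it was not. Rsad2 was -1.14 ± 0.19 with Poly(I:C) and -0.96 ± 0.21 with SeV, both called, and -0.48 ± 0.19 and -0.40 ± 0.18 with LPS and MDP_LPS. Ccl5 was lower with Poly(I:C) (-1.13 ± 0.31, adjusted p = 0.0388), and its values with LPS and MDP_LPS, 0.36 ± 0.24 and 0.23 ± 0.24, lay above 0. The test of any difference between the 4 stimuli called 0 genes in edgeR, with 281 of 5782 at an unadjusted p under 0.05. Its adjusted p was 0.321 for Ccl5, 0.951 for Ifit2 and 0.961 for Rsad2. A difference between stimuli was not shown for any gene.

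**Figure D3:**
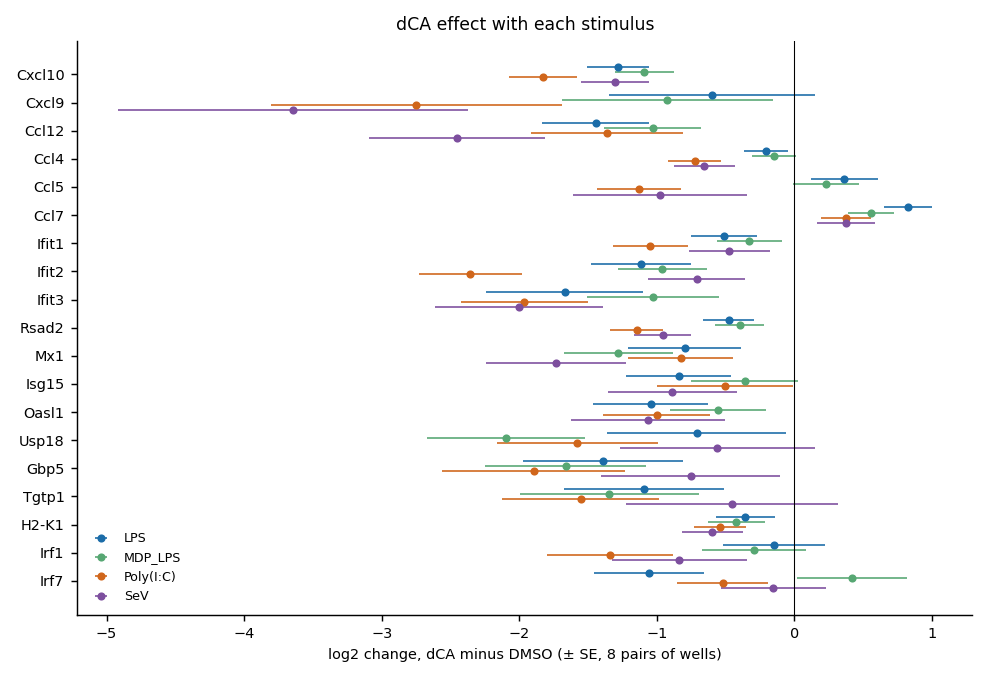
Log2 change with dCA (± SE) for 19 genes with each of the 4 stimuli, 8 pairs of wells each. Cxcl10 lies below 0 with all 4, Ccl7 above 0 with all 4, and Ccl5 lies on both sides.

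By time, in a fit over all 64 wells, those of 60 to 180 min gave 196 called genes (3.39%) and those of 15 to 45 min gave 107 (1.85%), from 5 and 3 times. Of the interferon genes 16 fell and 2 rose late, beside 1.61% and 1.78% of all tested genes, with a median of -0.41. Early, 5 fell, beside 0.865% of all tested genes, with a median of -0.37. Cxcl10 was already lower in the early wells, at -1.09 ± 0.23 (adjusted p = 0.0023), and was -1.45 ± 0.14 late. Rsad2 was -0.70 ± 0.21 early (adjusted p = 0.0488) and -0.73 ± 0.12 late. For Ccl12 the early value was 0.32 ± 0.47 and the late value -1.72 ± 0.22, a difference of -2.04 ± 0.54 whose adjusted p was 0.454. The test of late minus early called 0 genes in edgeR (296 at an unadjusted p under 0.05) and 1 in DESeq2, Ccl12 (adjusted p = 0.0378). The difference for Cxcl10 was -0.36, with a 95% interval (normal) from -0.91 to 0.18.

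To see how far the lower levels were a weaker response, the dCA change was compared with that in the NoStim wells of 60 to 180 min, which lie on the same plates. Without a stimulus, the 5 DMSO wells held Cxcl10 at 623, 678, 633, 509 and 734 CPM at 60, 90, 120, 150 and 180 min, and the dCA wells at 47.7, 220, 529, 206 and 280 CPM. The DMSO well was the higher at each time, and only the dCA well of 120 min overlapped the DMSO range. The change without a stimulus was -1.40 ± 0.32 (adjusted p = 0.0185), and with the 4 stimuli at these times -1.45 ± 0.14. Ifit2 in NoStim wells was 69.2, 242, 225, 300.1 and 320 CPM with DMSO and 35.8, 0, 180.3, 151 and 69.9 CPM with dCA, lower with dCA at each time, at -1.37 ± 0.57 (adjusted p = 0.471).

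The size of the response above NoStim was then compared between pretreatments. Each response was fitted within its pretreatment with time as a term, and the difference within pairs of wells of the same stimulus and time, so the difference need not equal 1 response minus the other. Cxcl10 rose by 1.26 ± 0.25 with DMSO and by 1.31 ± 0.30 with dCA, a difference of -0.05 with a 95% interval from -0.79 to 0.69. Ifit2 was 1.42 ± 0.36 above NoStim with DMSO and 1.33 ± 0.46 with dCA, the second not called (adjusted p = 0.195), with a difference of 0.07 and an interval from -0.999 to 1.13. Both intervals are wide, and the number of NoStim wells, 5 for each pretreatment, limits them.

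For Rsad2, Ifit1 and Ccl4 the response was smaller with dCA by its point value, but none of these differences was called. Ifit1 rested on at most 7 UMI in any NoStim well. In NoStim wells Rsad2 was 83.1, 226, 183, 144 and 414 CPM with DMSO and 215, 495, 204, 425 and 198 CPM with dCA, higher with dCA at all times but 180 min. Its response was 4.2 ± 0.4 with DMSO and 2.61 ± 0.37 with dCA, a difference of -1.27 ± 0.30 with an unadjusted p of 7.37e-05 and an adjusted p of 0.418. For Ifit1 the responses were 4.91 ± 0.48 and 3.48 ± 0.43, and for Ccl4 3.81 ± 0.36 and 2.79 ± 0.33, with adjusted p of 0.919 for each difference. No gene passed the test of a different response in edgeR (0 of 5671, 297 at an unadjusted p under 0.05) or DESeq2 (0, with 182 at that level). On simulated data the edgeR test called only 8 of 101 genes given a 4-fold difference and 3 of 93 given a 2-fold difference. The simulated spread came from a fit with stimulus and time additive and no dCA term. It can exceed the spread within pairs of wells, so these counts do not give the power of the test on the real wells. The absence of calls does not show that the responses were equal. Of 115 interferon genes 58 had a difference below 0, with a median of -0.02 beside -0.03 over all genes. The number of genes called in the mean response was 56 with DMSO (0.987%) and 48 with dCA (0.846%).

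**Figure D4:**
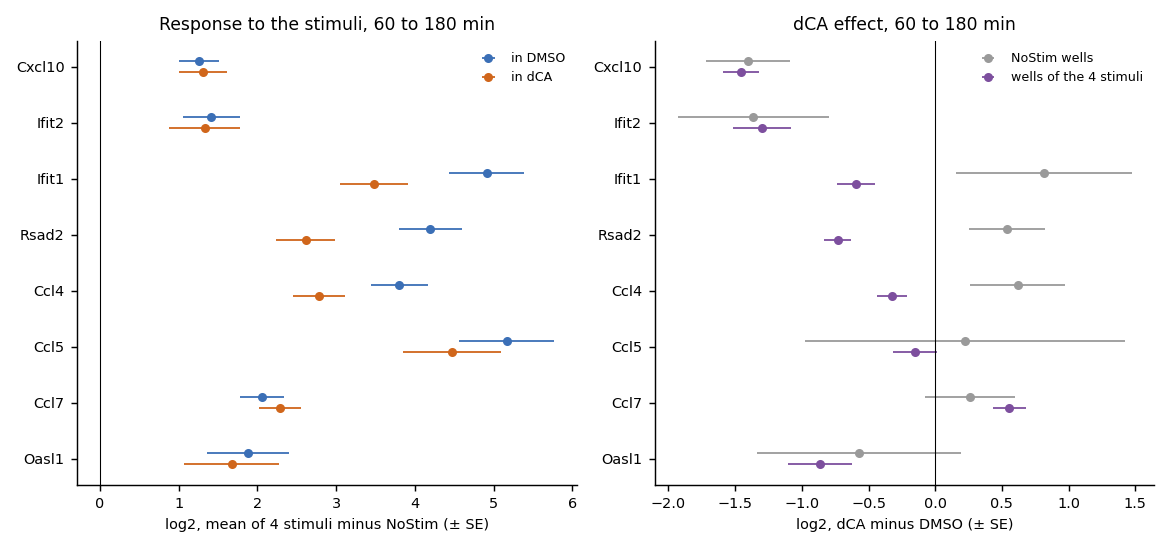
Left, log2 response of 8 genes to the mean of the 4 stimuli against NoStim at 60 to 180 min (± SE), with DMSO in blue and dCA in orange. Right, log2 change with dCA (± SE) in NoStim wells in grey and with the 4 stimuli in purple. Cxcl10 and Ifit2 lie below 0 in both kinds of wells, while Rsad2, Ifit1 and Ccl4 have grey values above 0 and purple values below 0, differences that were not called.

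The nearest other stimuli in the series are Pam3cys, CpG, R848 and FLA, whose receptors are known to signal through MyD88 and not TRIF. The change with dCA was fitted for both sets of stimuli together, from different wells of the same plates. It called 439 genes (7.95%) with the interferon-inducing stimuli and 384 (6.96%) with the MyD88 stimuli, and 206 were in both, 46.9% of the first list and 53.6% of the second, all in the same direction. Of the interferon genes 28 fell with the first set and 13 with the second, beside 4.11% and 3.1% of all tested genes. Cxcl10 was -1.35 ± 0.13 and -0.94 ± 0.15, and Ifit2 -1.23 ± 0.19 and -0.68 ± 0.22 (adjusted p = 0.0403). Rsad2 was -0.71 ± 0.12 and -0.34 ± 0.16, the second not called (adjusted p = 0.220). The test of the difference called 0 of 5668 genes in edgeR, with 279 at an unadjusted p under 0.05, and 0 in DESeq2, with 177. No gene's change was shown to be particular to the interferon-inducing stimuli. The difference for Cxcl10 was -0.41, with a 95% interval from -0.80 to -0.01 before adjustment (adjusted p = 0.947).

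Inflammatory genes outside the interferon lists moved in both directions. Of 37 tested NF-kB targets 6 fell and 3 rose, beside 4.17% and 3.32% of all tested genes, with a median of -0.27. Irg1, the enzyme that makes itaconate, ran from 0 over 76.8 to 860.5 CPM with DMSO and from 0 over 11.4 to 366 CPM with dCA, was lower with dCA at 23 conditions and higher at 4, and changed by -1.76 ± 0.27 (adjusted p = 3.42e-07). Il1b, the gene of interleukin 1 beta, fell by 1.08 ± 0.24 (adjusted p = 0.00104), and Icam1, an adhesion receptor, by 0.71 ± 0.16 (adjusted p = 0.0017). The others that fell were Clec4e, Birc3 and Ccl3 at -0.73, -0.71 and -0.50. Il1rn, which encodes the antagonist of the interleukin 1 receptor, rose by 0.94 ± 0.32 (adjusted p = 0.04999), at the edge of the threshold, Bcl2a1b by 0.75 ± 0.23 (adjusted p = 0.0223) and Ccl9 by 0.31 ± 0.08 (adjusted p = 0.00336). Il1b was not called with no blocks, Icam1 with no blocks or without Poly(I:C), and Bcl2a1b and Il1rn in 9 alternatives each. Bcl2a1b has near-identical copies and is uncertain. Tnf was not called, at -0.11 ± 0.17 (adjusted p = 0.804), with medians of 140 CPM with DMSO and 185 CPM with dCA, nor was Il12b at -0.53 ± 0.35 (adjusted p = 0.443). Il6 had 16 and 6 UMI and Il10 34 and 27 UMI, and neither was tested.

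Immediate early genes are switched on within minutes of a signal. Of 19 tested, 7 fell and 1 rose, beside 4.17% and 3.32% of all tested genes, with a median of -0.43. Egr1 was at -1.61 ± 0.38 (adjusted p = 0.00211), Klf2 at -1.65, Fos at -1.55, Ier2 at -1.42, Btg2 at -1.27 and Jun and Junb both at -0.65. Jun was lower with dCA at 27 of 32 conditions. Zfp36l1, an RNA-binding protein that destabilises transcripts, rose by 0.86 ± 0.20 (adjusted p = 0.00149) and was higher at 27 of 32, but was not called without MDP_LPS. Egr1 was not called without MDP_LPS or in the wells of 60 min and later, and Fos, with 77 and 24 UMI, lost the call in 11 alternatives.

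Metabolic groups moved in the same wells, in which 3.32% of all tested genes rose and 4.17% fell. In lipid handling 7 of 13 tested genes rose and 2 fell, among them the fatty acid carriers Cd36 (1.21 ± 0.13, higher at 30 of 32 conditions) and Fabp5 (1.45 ± 0.20, higher at 29), while Apoe fell by 1.01 ± 0.26. In cholesterol synthesis 4 of 21 rose and 1 fell, with Hmgcs1 at 1.41 ± 0.24, Lss at 1.67 ± 0.39 and Mvd at 1.80 ± 0.43. Apoe lost its call in 4 alternatives, Mvd in 3 and Lss in 2. In glycolysis 5 of 15 fell and none rose, with Ldha at -0.62 ± 0.09, Aldoa at -0.60 ± 0.11 and Gapdh at -0.40 ± 0.07. Of 28 tested lysosomal genes 6 rose and 1 fell. Cathepsin D, Ctsd, ran from 774 over 1286 to 2719 CPM with DMSO and from 1465 over 2133 to 4172 CPM with dCA and was higher with dCA at all 32 conditions (0.69 ± 0.07). The iron genes Fth1, the ferritin heavy chain, and Tfrc, the transferrin receptor, rose by 0.72 ± 0.05 and 2.42 ± 0.41. Of 26 cell cycle genes 6 fell and none rose, with Mki67, a marker of dividing cells, at -0.61 ± 0.17, a call lost in 6 alternatives.

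Among the genes with the largest falls, Emb, a membrane glycoprotein, had a median of 53.1 CPM with DMSO and 0 with dCA and fell by 2.98 ± 0.42 (adjusted p = 5.48e-08). Clec10a, a lectin of macrophages, fell by 2.92 ± 0.52 on 106 and 10 UMI, and was not called by DESeq2. The paired immunoglobulin-like receptor genes Pira1, Pira2 and Pira4 were at -1.72, -1.63 and -2.14, but they are near-identical copies and uncertain individually. Among the largest rises was that of Nptx1, a neuronal pentraxin, from 38 UMI over all DMSO wells to 447 over all dCA wells (3.54 ± 0.29, higher at all 32 conditions). Ctsl, the protease cathepsin L, rose from a median of 405 to 2488 CPM and was higher at all 32 conditions (2.65 ± 0.08). Akap2, Cdk20 and Slc5a3 rose by 2.49, 2.43 and 2.21. The chemokine receptor gene Ccr3 went from 17 UMI over all DMSO wells to 181 over all dCA wells (3.17 ± 0.43) and Atp6v0d2, a subunit of the proton pump listed among both lysosome and osteoclast genes, from 34 to 205 UMI (2.47 ± 0.39). Ctla2a and Ctla2b, again close copies, were at 3.25 and 2.04. Of 12 macrophage markers tested, C1qb fell by 0.34 ± 0.08 and Aif1 fell by 1.502 ± 0.505 (adjusted p = 0.0492), calls lost in 2 and 9 alternatives. What part the macrophage and osteoclast markers or the Rn45s share had in the changes of other genes was not tested, beyond the count of 340 called genes with the Rn45s share as a covariate.

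A second readout came from TF-seq, in which constructs that respond to single transcription factors are each read through a sequence tag. The 64 wells held 979 to 8354 reporter counts over 58 reporters. A level is a count per 1000000 reporter counts of the well after TMM scaling, so it is relative to the other reporters. Of the 58, 17 were called (29.3%), 7 higher (12.1%) and 10 lower (17.2%) with dCA. Those that fell included reporters named for NF-kB, for IRF factors, for the interferon beta gene and for the elements ISRE and SIE. The NF-kB reporter NFkB_1 ran from 38473 over 237899 to 302386 with DMSO and from 20922 over 154242 to 258927 with dCA. It was lower at 30 of 32 conditions and fell by 0.59 ± 0.08 (adjusted p = 3.06e-12).

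IFNB1_44, named for the interferon beta gene, was lower at 29 of 32 (-0.42 ± 0.06, adjusted p = 6.89e-11) and ISRE_54 at 24 of 32 (-0.33 ± 0.06, adjusted p = 2.44e-07). Reporters IRF3.7_45, IRF1_55, STAT4_35, SIE_56 and IRF3_10 were between -0.26 and -0.16. Those that rose were AP1_33 (0.37 ± 0.06), SRF_11 (0.35 ± 0.06), NRF2_4 (0.29 ± 0.07), SREBP_29 (0.25 ± 0.07), TFEB_28 (0.22 ± 0.06), CREB_16 (0.19 ± 0.07) and SP1_32 (0.19 ± 0.06). The minimal promoter minP_58, which has no response element by its name, was at 0.00. Division by the total reporter count gave 12 higher and 4 lower among 16 called, and with no blocks for stimulus and time 3 were called. Of 11 alternatives, IRF3_10 lost its call in 7, SIE_56 in 6, STAT4_35 and CREB_16 in 4 each, SP1_32 in 3 and IRF1_55 in 2. None of the called reporters named here changed direction in them.

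**Figure D5:**
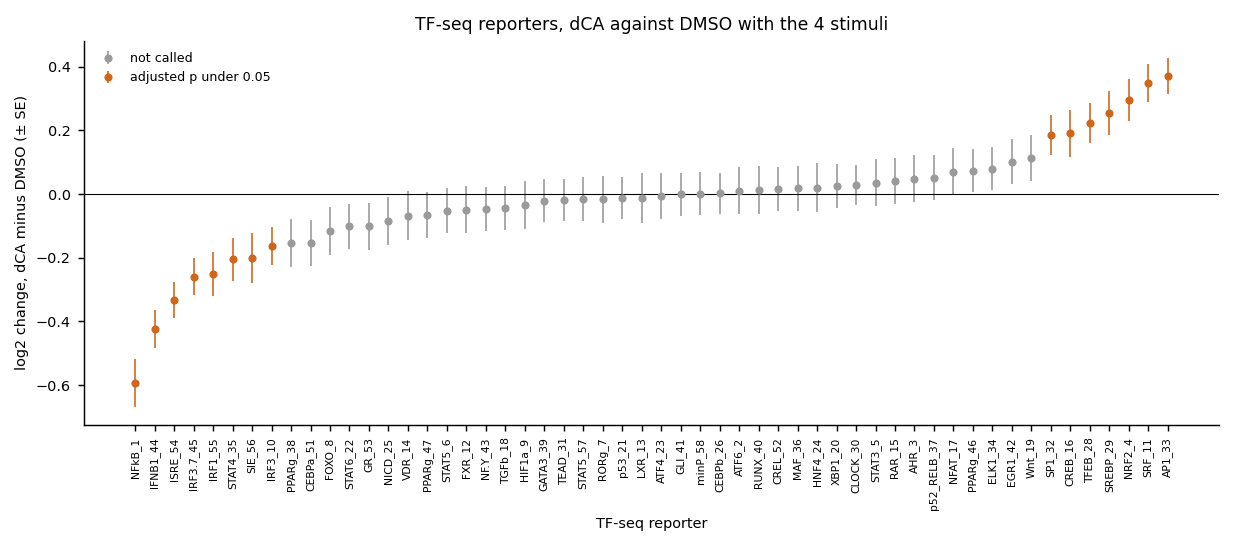
Log2 change with dCA (± SE) of 54 TF-seq reporters over 32 conditions, in order of size, with the 15 called in orange. NFkB_1 and IFNB1_44 lie lowest and AP1_33 and SRF_11 highest.

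The reporters were also set against NoStim at 60 to 180 min. These NoStim wells were shallow and unequal, with 716 to 823 reporter counts in the DMSO wells and 1088 to 1478 in the dCA wells. All responses and response differences of the reporters rest on them. With DMSO, the stimuli raised NFkB_1 by 2.06 ± 0.24 (adjusted p = 1.44e-12) and IFNB1_44 by 1.89 ± 0.21 (adjusted p = 2.47e-13), and with dCA by 2.39 ± 0.25 and 1.23 ± 0.18. The difference for IFNB1_44 was -0.64 ± 0.26 and was not called (adjusted p = 0.288), nor was that for NFkB_1, 0.40 ± 0.29 (adjusted p = 0.757). Of 58 reporters 1 passed this test (1.72%): NRF2_4, named for the factor of the oxidative stress response, fell by 1.52 ± 0.19 with the stimuli and DMSO and by 0.94 ± 0.17 with dCA, a difference of 0.64 ± 0.19 (adjusted p = 0.0314). The reporter ISRE_54, which was lower with dCA, had a response difference of -0.17 ± 0.20. The response differences of the reporters, that of NRF2_4 included, were not fitted under any of the alternatives.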

How the data were processed

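The files are the authors' deposited UMI count and total read count tables of 23481 genes and the deposited TF-seq reporter counts. Per the submitters' processing notes, BWA and edgeR were used with mm10. Versions, annotation, counting rules and the delivery of the reporters are not given in the sources used, and the deposited normalized reporter values equal the counts and were not used. Wells were grouped by their titles. The members and gene lists were chosen with earlier results of these data known.

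Genes averaging at least 1 UMI a well (5782) and reporters with at least 5 counts were fitted with edgeR 4.0.16 in R 4.3.3 (quasi-likelihood test, TMM factors), with the 32 stimulus and time conditions as blocks, and p-values were adjusted over all features by the Benjamini-Hochberg method. The current form of that fit was preferred to the earlier one after both were tested on simulated data. There, 6.21% of unchanged genes had an unadjusted p under 0.05 with the current form and 2.32% with the earlier one. Of 95 genes given a 4-fold change, the current form called 67 and the earlier one 44. Differences were tested as contrasts: any difference between stimuli, late minus early, stimuli minus NoStim, and interferon-inducing minus MyD88 stimuli. Fold changes are log2, dCA minus DMSO. Named genes were the 10 largest changes each way among called genes with at least 20 CPM and that direction in at least 24 conditions, up to 3 members each way per list, and a set of known interferon and kinase genes; called list members were counted and also named. Some genes and reporters are not reported here, though they remain in the fits and counts. The alternatives were DESeq2 1.42.0, read counts, other scalings and filters, other blocks, each stimulus left out, late wells only and the Rn45s share as a covariate. With 1 UMI near 13 CPM, low genes are read coarsely.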

Additional observations from a re-analysis of the deposited data

Results flagged for a closer look

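In 44 groups of 8 values, 5 held a value far from the others. The chance rate of the rule, about 1 in 20 groups, assumes independent values. These groups are time courses and some share wells, so the count cannot be set against that rate. For Rsad2, viperin, the difference dCA minus DMSO in log2(CPM + 10) was 1.35 with LPS at 30 min, while the other 7 LPS times lay between -0.96 and -0.40. With MDP_LPS it was -2.34 at 15 min, beside -0.60 to 0.64 at the others, and with Poly(I:C) it was -3.77 at 30 min, beside -1.55 to 0.02. All of these are early conditions, each a single pair of wells. The median difference over the interferon lists was -0.33 with LPS at 120 min, beside -0.14 to 0 at the other times. The DMSO well of Poly(I:C) at 30 min had 123855 UMI, beside 66476 to 91050 in the other DMSO wells of that stimulus.

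The reporter NRF2_4 was the only reporter whose change with dCA differed between the 4 stimuli and NoStim, by 0.64 ± 0.19 on the log2 scale (edgeR, adjusted p = 0.0314). This difference was not fitted under any of the alternatives.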

How the results depend on the processing

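Depth limits these results: 1 UMI is worth about 13 CPM in a well, so genes with few UMI rest on small counts, and levels near 0 carry no order. With single wells, the spread comes from 32 pairs on 2 plates. Of 73 named genes that were called, 33 kept the call in every alternative that tested them, 40 lost it in at least 1 and none changed direction. The most calls of named genes were lost without Poly(I:C) and in the wells of 60 min and later (20 each), without MDP_LPS and with no blocks (19 each).

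The 433 called genes became 284 (144 lower) without MDP_LPS, 235 (122 higher, 113 lower) without Poly(I:C), 207 (98 higher, 109 lower) with the wells of a stimulus summed, which left 877 genes to test, and 186 (92 higher, 94 lower) in the wells of 60 min and later. The earlier form of the quasi-likelihood fit, an alternative chosen after seeing the data, gave 280 (148 lower), and TMM of summed libraries gave 159 lower. The 29 interferon genes that fell became 19 without MDP_LPS, 15 without Poly(I:C), 18 with TMM of summed libraries, 16 with summed wells, 17 in the wells of 60 min and later and 13 with no replicate block, that is without pairing wells by stimulus and time (372 genes called in all). Without the Poly(I:C) pair of 30 min, also chosen after seeing the data, they were 26. Of the genes called in each of these analyses and in the main one, all had the same direction. By stimulus, total read counts gave 16 genes with LPS, 35 with Poly(I:C) and 24 with SeV, and a minimum mean of 3 UMI gave 56 with MDP_LPS and 70 with SeV. Late minus early had 1 gene in DESeq2. For the reporters, the total reporter count gave 12 higher and 4 lower, no replicate block gave 3 called (2 higher, 1 lower), and leaving out LPS gave 6 lower. The cause of these shifts was not tested.

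Signs turned only for values that were not called. Ccl5 was 0.203 without Poly(I:C), 0.075 with no replicate block and 0.115 with the Rn45s share as a covariate. Ddx58 was 0.0245 with stimulus and time additive, 0.0415 without Poly(I:C), 0.164 without SeV, 0.0402 with TMM of summed libraries, 0.0187 with no replicate block, 0.194 with the Rn45s covariate and 0.0231 without the Poly(I:C) pair of 30 min. Stat2 was 0.103 without Poly(I:C), 0.0622 with TMM of summed libraries, 0.183 with the Rn45s covariate, 0.238 in the wells of 60 min and later, 0.00212 in the earlier fit and 0.0898 without the Poly(I:C) pair of 30 min. Cdk8 was -0.0386 and Socs1 -0.0455 without LPS, Irf9 0.0208 without LPS and 0.0658 without SeV, and Tnf 0.0475 without Poly(I:C) and 0.0723 in the wells of 60 min and later. For late minus early, Ccl4 was -0.0151 and Rsad2 0.00928 with total read counts, Ifit1 was 0.195 and Rsad2 0.021 without Poly(I:C), Ifit2 was 0.0572 without MDP_LPS, and Rsad2 was 0.0633 with stimulus and time additive and 0.0488 without LPS. For the response difference, Cxcl10 was 0.0114 in DESeq2, 0.0848 with stimulus and time additive and 0.0926 without Poly(I:C), Ifit2 was -0.0638 without LPS and -0.136 without SeV, and Ccl12 was 2.41 with total read counts. For interferon-inducing minus MyD88 stimuli, Ifit1 was 0.185 in DESeq2, 0.0319 with stimulus and time additive and 0.0636 without Poly(I:C). The reporter minP_58 was -0.00344 with TMM without the 5 most abundant reporters and -0.0413 without Poly(I:C).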
